A study of Mus musculus with 16 samples.

Results

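DNA replication and cell cycle genes were followed as a set of 45 genes in primary hepatocytes, out of 55450 gene rows in the deposited table. The set was chosen by function and not by measured values, although earlier results of these data were known. It holds the licensing factors and helicase, the fork proteins with the enzymes that supply nucleotides, the cyclins and kinases of the cycle, and the inhibitors Cdkn1a and Cdkn1b with Mdm2. All 45 genes were found in the table, and 35 of them reached a mean of 1 CPM (a gene's count scaled to its library's total) over the 16 libraries and entered the tests. Hepatocytes, the parenchymal cells of the liver, were isolated from wild-type mice and cultured overnight with serum and an insulin, transferrin and selenium supplement. There were 4 groups of 4 libraries, with replicates lettered A to D in each: untreated cells, cells given 10 mM sodium itaconate, cells given a chemically defined lipid mixture diluted 1:10 (fatty acids and cholesterol), and cells given both. The methods of the study state that the mice were male C57BL/6J. Which animals gave the cells of each letter is not stated, so p-values measure the spread between these libraries, which may be technical. Log2 fold changes are given ± SE throughout, gene positions are those of GENCODE release M21 on mm10, and adjusted p-values are from the edgeR quasi-likelihood test over all genes tested. Libraries held between 22346049 and 35512004 counts.

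Before a cell copies its DNA, the origin recognition complex, Cdc6 and Cdt1 load the ring of Mcm2 to Mcm7 onto origins, and Cdc45 and the GINS subunits turn that ring into the working helicase. E2F1 switches on many of these genes together with the cyclin E genes, while D-type cyclins and their kinases release E2F from restraint and the p53 target p21 (Cdkn1a) and p27 (Cdkn1b) hold the kinases back. Hepatocytes of the adult liver rest outside the cycle and can re-enter it after loss of tissue. Genes of G2 and mitosis are switched on late, in part through the CHR and CCAAT elements of their promoters.

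Promoter sequence was available from RefSeq (build GRCm38.p6) for 35 of the 45 genes, and 3 promoters are shown. Mcm5 is a subunit of the helicase ring that was lower with lipid, Mcm6 is the most abundant licensing gene, and Cdk1 is a G2 and mitosis gene that was higher with lipid. The cyclin gene Ccnd3 was also picked but has more than 1 promoter entry, and such genes were not printed. All 3 shown hold an E2F match, which 7 of the 35 genes do, so they do not represent the set. Each run is the 160 bases before the RefSeq start, which can differ from the GENCODE start of the same gene, read 5′ to 3′ on the strand of the gene. Capitals mark matches, on either strand, to the E2F forms TTTCCCGC, TTTGGCGC and TTTCGCGC, to the CHR forms TTTGAA and TTCGAA, and to CCAAT.
Mcm5 (chr8:75109349-75109508, plus strand): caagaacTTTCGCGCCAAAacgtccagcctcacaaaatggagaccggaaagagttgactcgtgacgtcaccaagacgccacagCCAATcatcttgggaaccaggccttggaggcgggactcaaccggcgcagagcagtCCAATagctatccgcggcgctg
Mcm6 (chr1:128359706-128359865, minus strand): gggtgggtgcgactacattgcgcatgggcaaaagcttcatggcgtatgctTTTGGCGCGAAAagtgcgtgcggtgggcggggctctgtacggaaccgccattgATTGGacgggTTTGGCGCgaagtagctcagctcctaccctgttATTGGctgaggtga
Cdk1 (chr10:69352913-69353072, minus strand): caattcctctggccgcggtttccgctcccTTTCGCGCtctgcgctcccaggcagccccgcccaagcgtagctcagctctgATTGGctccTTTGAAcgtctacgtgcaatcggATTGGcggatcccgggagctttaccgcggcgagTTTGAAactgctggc

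The Mcm5 run holds a pair of E2F matches that overlap in 1 block and 2 CCAAT matches. The Mcm6 run holds 3 E2F matches, 2 of which overlap, and 2 CCAAT matches. Cdk1 has 1 E2F match, 2 CHR matches and 3 CCAAT matches in the 250 bases searched, of which the CCAAT match farthest from the start lies outside the run shown. Over those 250 bases an E2F match was present in 7 of the 35 genes (Mcm5, Mcm6, Mcm7, Cdc6, Uhrf1, Pola1 and Cdk1), and in 1.53% of all 32851 promoters in the table. A CHR match was present in 9 of the 35 genes and in 17.1% of all promoters. A CCAAT match was present in 25 of the 35 genes and in 33.9% of all promoters. A gene counts with a match in any of its promoter entries, whereas the shares of all promoters are by entry. By entry, the set held an E2F match in 7 of 42, a CHR match in 9 and a CCAAT match in 27. A match describes the letters of the window and does not show that a factor binds there.

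The mean level of a gene ran from 0.00831 CPM for Bub1 to 303 CPM for Cdkn1a, with helicase and clamp genes near the top and mitotic genes near the bottom. By mean over the 16 libraries, Cdkn1a (p21, an inhibitor of cyclin-dependent kinases) was at 303 CPM, Mdm2 (the ubiquitin ligase that degrades p53) at 212 CPM, Mcm6 at 177 CPM and Pcna (the sliding clamp of the fork) at 103 CPM. Within the helicase ring, whose 6 subunits stand in equal number in the complex, the level per kb of annotated exon was 37.8 CPM per kb for Mcm6, 19.3 for Mcm7, 13.7 for Mcm3, 7.32 for Mcm4, 4.47 for Mcm2 and 3.24 for Mcm5. Mcm6 thus stood 11.7 times above Mcm5 on the level per kb. The median of the 11 licensing and helicase genes was 4.56 CPM per kb, that of the 12 fork, nucleotide and chromatin genes 1.38, that of the 6 genes of G1 and S entry 2.63, and that of the 13 genes of G2 and mitosis 0.104. Over all genes tested the median was 5.97 CPM per kb.

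Of the 13 genes of G2 and mitosis, Mki67, Top2a and Bub1 were at or near 0. Cdk1 (2.52 CPM), Aurka (2.2 CPM), Ccnb2 (1.25 CPM) and Aurkb (1.16 CPM) of the same group averaged above 1 CPM. Mki67 (the antigen Ki-67, present in cycling cells) was at 0.0468, 0.0351, 0.0365 and 0.25 CPM in untreated replicates A to D, 0.181, 0.111, 0.113 and 0.288 CPM with itaconate, 0, 0.113, 0.0405 and 0 CPM with lipid and 0.0285, 0.154, 0.0339 and 0.187 CPM with both, which is 0 to 10 counts in a library. Top2a (topoisomerase II alpha, which untangles sister chromatids) was at 0.515, 0.456, 0.475 and 0.25 CPM in untreated cells, 0.471, 0.296, 0.565 and 0.346 CPM with itaconate, 0.366, 0.113, 0.284 and 0.203 CPM with lipid and 0.37, 0.308, 0.271 and 0.187 CPM with both. Bub1 (a kinase of the spindle checkpoint) was at 0 in 12 of 16 libraries and had at most 1 count in any. In a model with no filter the lipid contrast had an SE of 1.19 on the log2 scale for Mki67 and 0.52 for Top2a, and differences within such errors were not detectable at this depth. Cyclin D1 (Ccnd1), which accumulates when hepatocytes enter the cycle, was also low, at 1.41, 0.842, 0.986 and 1.39 CPM in untreated cells and 1.27, 1.22, 2 and 1.04 CPM with itaconate. With lipid it was at 2.15, 1.32, 1.09 and 1.86 CPM and with both at 1.57, 0.847, 1.02 and 1.12 CPM, and the 4 groups overlapped.

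**Figure D1:**
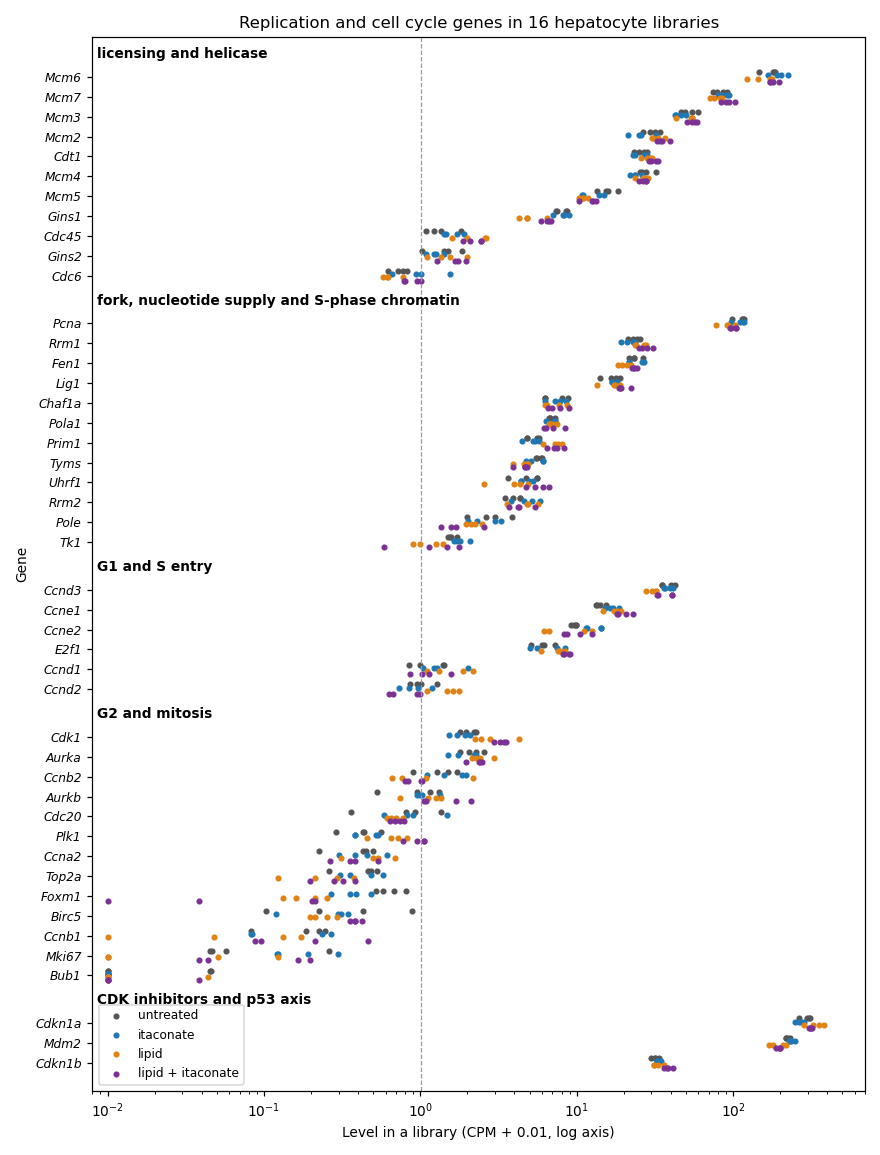
Level of each of the 45 genes in each of the 16 libraries, in CPM + 0.01 on a log axis, by functional group; colour gives the treatment and the dashed line stands at 1 CPM. Cdkn1a, Mdm2, Mcm6 and Pcna stand near or above 100 CPM, while 9 of the 13 genes of G2 and mitosis average below 1 CPM.

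The cells carried hepatocyte markers at high level: the 9 markers summed to 41782 to 56545 CPM in untreated libraries and 32341 to 52892 CPM with lipid + itaconate. Of the 9, 3 were lower and none higher with lipid alone, and 5 lower and 1 higher with lipid added to itaconate. The 6 cholangiocyte markers summed to 600.3 to 1171 CPM in untreated libraries, 573 to 1048 with itaconate, 336 to 609 with lipid and 356 to 646 with both. Of these 6 genes, 2 were tested and both were lower in each lipid comparison, while Cftr was at 0 in every library. Macrophage and Kupffer cell markers (10 genes) summed to 181 to 293 CPM in untreated libraries, 158 to 245 with itaconate, 232 to 328 with lipid and 214 to 319 with both, and none of the 10 was at 0 in every library. Of the 10, 8 were tested. With lipid alone 5 of the tested markers were lower and 1 higher. With lipid added to itaconate 7 were lower and 1 higher. The endothelial list (6 genes tested) held 1 call higher and 1 lower with lipid alone, and 1 lower with lipid added to itaconate. The stellate and fibroblast list (1 gene tested) held 1 lower with lipid added to itaconate. Over all genes tested, 47.5% passed with lipid alone, 23.7% lower, and 47.0% with lipid added to itaconate, 23.5% lower. The part of other cell types in the changes below was not tested. The 5 lymphocyte markers, none of which reached the tests, summed to at most 1.35 CPM in any library. In bulk RNA, fewer cells of a type and less RNA per cell cannot be told apart.

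With the lipid mixture, the set did not move one way. Against untreated cells, 12 of the 35 genes tested passed an adjusted p of 0.05 (edgeR quasi-likelihood test), 5 higher and 7 lower. Over all 11675 genes tested, 47.5% passed, 23.8% higher and 23.7% lower, so the share of the set, 34.3%, was below the background. The genes that rose were Cdc45, Prim1, Ccne1, Cdk1 and Cdkn1a, and the genes that fell were Mcm5, Gins1, Pcna, Tyms, Fen1, Ccnd3 and Mdm2. When lipid was added to itaconate, 16 of 35 passed, 12 higher and 4 lower, against 47.0% of all genes, 23.5% higher and 23.5% lower. The genes that rose there were Mcm2, Mcm3, Mcm4, Cdc45, Cdt1, Rrm1, Prim1, E2f1, Ccne1, Cdk1, Cdkn1a and Cdkn1b, and the genes that fell were Gins1, Tk1, Ccnb2 and Mdm2. The 12 genes called higher make 34.3% of the 35. The median log2 fold change of the 35 was -0.01 with lipid alone and 0.08 with lipid added to itaconate, beside a median of 0.00 over all genes tested in each comparison. These 2 comparisons share no library, and 7 genes passed in both, all in the same direction: 58.3% of the 12 and 43.8% of the 16. Over all genes tested, 36% passed in both in the same direction, a larger share than 7 of the 35. Without the replicate letter in the model, 10 genes passed in each comparison, and no share over all genes was taken for that fit.

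**Figure D2:**
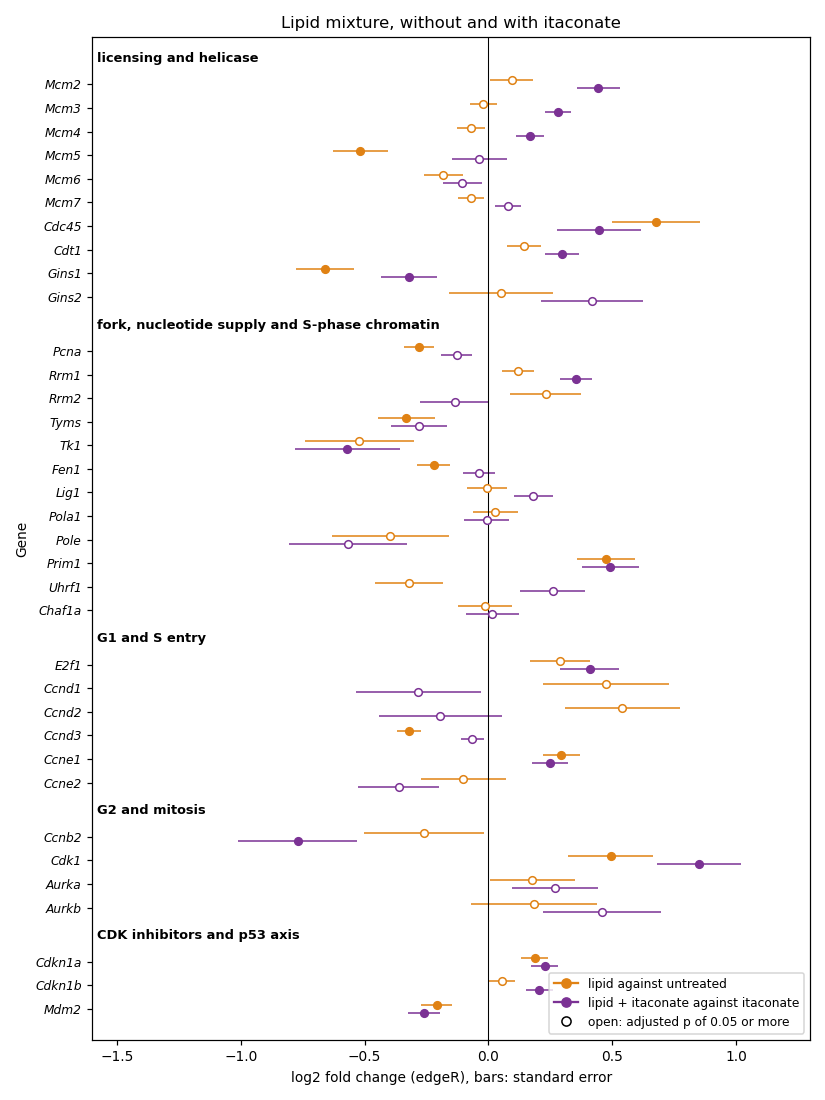
log2 fold change (edgeR) of the 35 tested genes with the lipid mixture, against untreated cells and, with itaconate present throughout, against itaconate; bars are standard errors and filled points have an adjusted p below 0.05. Prim1, Ccne1, Cdk1, Cdc45 and Cdkn1a lie right of 0 and Gins1 and Mdm2 left of 0 as filled points in both comparisons.

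Of the 6 subunits of the helicase ring, 1 passed with lipid alone, beside 47.5% of all genes tested. With lipid added to itaconate 3 passed, beside 47.0% of all genes. Mcm5 (chr8:75109569-75128439, plus strand) fell with lipid alone, and Mcm2, Mcm3 and Mcm4 rose when lipid was added to itaconate. Mcm5 was at 15.9, 18.5, 13.5 and 15.4 CPM in untreated replicates A to D and at 13.8, 14.9, 10.9 and 11 CPM in the itaconate replicates. Its levels were 11, 11.7, 10.9 and 10.4 CPM with lipid and 12.5, 10.3, 12.7 and 13.3 CPM with lipid + itaconate. Every lipid library was below every untreated library (log2 fold change -0.52 ± 0.11 SE, adjusted p = 0.0013), whereas lipid added to itaconate gave -0.04 ± 0.11 log2, adjusted p = 0.81. Mcm2 was at 26.5, 34.3, 29.6 and 31.9 CPM in untreated replicates A to D and at 25, 32.2, 21.4 and 25.8 CPM in the itaconate replicates. Its levels were 30.2, 36.6, 32.9 and 30.7 CPM with lipid and 32.5, 34.2, 39.4 and 35 CPM with lipid + itaconate. Mcm2 (chr6:88883474-88898780, minus strand) was lowest in the itaconate group, and its lipid + itaconate libraries did not overlap that group (log2 fold change 0.44 ± 0.09 SE, adjusted p = 6.8e-04). Lipid alone gave 0.09 ± 0.09 log2, adjusted p = 0.39. Mcm3 was at 46.2, 59.4, 54.6 and 49.3 CPM in untreated replicates A to D and at 43, 50.4, 46.4 and 42.9 CPM in the itaconate replicates. Its levels were 43.3, 54.8, 54.4 and 53.7 CPM with lipid and 54.4, 58.7, 57.3 and 51.1 CPM with lipid + itaconate. For Mcm3 (chr1:20802968-20820312, minus strand) the itaconate and lipid + itaconate groups did not overlap (log2 fold change 0.28 ± 0.05 SE, adjusted p = 6.7e-04), and lipid alone gave -0.02 ± 0.05 log2, adjusted p = 0.79.

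Mcm4 was at 26, 32.3, 27.8 and 25.5 CPM in untreated replicates A to D and at 22, 26.2, 23.7 and 23.5 CPM in the itaconate replicates. Its levels were 23.7, 28.7, 26.6 and 27.1 CPM with lipid and 26.4, 27.7, 27.9 and 25 CPM with lipid + itaconate. The itaconate libraries of Mcm4 (chr16:15623897-15637400, minus strand) overlapped those of lipid + itaconate, although all 4 letters were higher with lipid added (log2 fold change 0.17 ± 0.06 SE, adjusted p = 0.024). That call was lost without any 1 of itaconate replicates A, B and C or lipid + itaconate replicates A and C (adjusted p = 0.060 to 0.11), without the replicate letter in the model (adjusted p = 0.12), with no filter on low genes (adjusted p = 0.088) and on the 8 libraries compared alone (adjusted p = 0.063). Mcm6 was at 147, 182, 186 and 181 CPM in untreated replicates A to D and at 168, 203, 225 and 191 CPM in the itaconate replicates. Its levels were 123, 145, 177 and 171 CPM with lipid and 181, 198, 173 and 173 CPM with lipid + itaconate. Mcm6 (chr1:128331590-128359664, minus strand) was lower with lipid in all 4 letters, with overlapping groups and no call by edgeR (log2 fold change -0.18 ± 0.08 SE, adjusted p = 0.066), and lipid added to itaconate gave -0.10 ± 0.08 log2, adjusted p = 0.28. With lipid alone it passed in 7 alternatives, among them DESeq2 (adjusted p = 0.039), the 8 libraries compared alone (adjusted p = 0.013) and no filter on low genes (adjusted p = 0.0077). Mcm7 was at 75, 85.7, 91.2 and 78.5 CPM in untreated replicates A to D and at 79.9, 92, 94.5 and 85.3 CPM in the itaconate replicates. Its levels were 70.9, 82.8, 85.2 and 75.9 CPM with lipid and 94.1, 103, 90.8 and 83.4 CPM with lipid + itaconate. Mcm7 (chr5:138164583-138172422, minus strand) gave -0.07 ± 0.05 log2, adjusted p = 0.30 with lipid alone and 0.08 ± 0.05 log2, adjusted p = 0.22 with lipid added to itaconate, neither a call. Reads of Mcm7 were shared out by the counting in 15 of 16 libraries, and the gene overlaps Cops6 and Ap4m1 on the other strand.

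**Figure D3:**
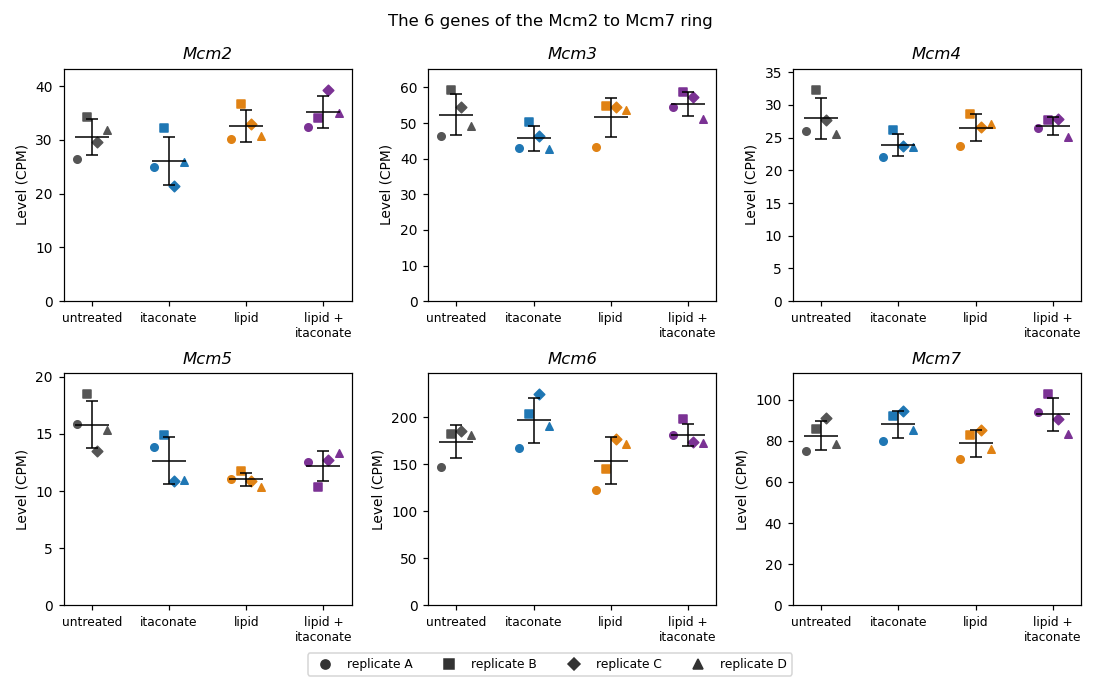
Level in CPM of Mcm2 to Mcm7 in the 4 libraries of each group, with the mean and SD as bars and the replicate letter as the symbol; axes start at 0. Mcm5 is highest in untreated cells, at 13.5 to 18.5 CPM, while Mcm2, Mcm3 and Mcm4 have their lowest group means with itaconate alone.

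Among the other licensing genes, Gins1 fell with lipid in both comparisons while Cdt1 and Cdc45 moved up. Gins1 was at 8.67, 7.33, 7.52 and 8.56 CPM in untreated replicates A to D and at 8.27, 8.87, 8.17 and 7.03 CPM in the itaconate replicates. Its levels were 4.79, 6.47, 4.3 and 4.79 CPM with lipid and 6.46, 6.66, 6.81 and 5.88 CPM with lipid + itaconate. Gins1 (chr2:150905400-150931280, plus strand), a subunit of the GINS complex, was lower in every lipid library than in every untreated library (log2 fold change -0.66 ± 0.12 SE, adjusted p = 3.1e-04), and it did not overlap between itaconate and lipid + itaconate either (log2 fold change -0.32 ± 0.11 SE, adjusted p = 0.031). The second call was lost without any 1 of itaconate replicates A, B and C or lipid + itaconate replicates A, B and D (adjusted p = 0.065 to 0.089). Cdt1 was at 23.3, 28.3, 26.9 and 24.9 CPM in untreated replicates A to D and at 23.1, 26.9, 28.2 and 23.5 CPM in the itaconate replicates. Its levels were 25.8, 28.4, 29.4 and 30.5 CPM with lipid and 32.4, 33.2, 29.8 and 29.2 CPM with lipid + itaconate. Cdt1 (chr8:122568015-122573554, plus strand), which loads the ring onto origins, was higher without overlap when lipid was added to itaconate (log2 fold change 0.30 ± 0.07 SE, adjusted p = 0.0024), and lipid alone gave 0.14 ± 0.07 log2, adjusted p = 0.10. It overlaps the row Gm20388 on the same strand.

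Cdc45, which joins the ring to form the active helicase, averaged 1.84 CPM and rose with lipid alone (log2 fold change 0.68 ± 0.18 SE, adjusted p = 0.0054) and with lipid added to itaconate (0.45 ± 0.17 log2, adjusted p = 0.042), in 4 of 4 letters each time. The second call was lost without any 1 of itaconate replicates A, B and D, lipid replicate B or lipid + itaconate replicates A and D (adjusted p = 0.05002 to 0.15), without the replicate letter in the model (adjusted p = 0.098), with no filter on low genes (adjusted p = 0.11), on the 8 libraries compared alone (adjusted p = 0.086) and by DESeq2 (adjusted p = 0.087). Cdc45 shares its position with Ufd1 on the other strand, whose mean count was 1108 against 51.1 for Cdc45. Gins2 gave 0.05 ± 0.21 log2, adjusted p = 0.87 and 0.42 ± 0.21 log2, adjusted p = 0.11 in the same order. The loader Cdc6, at 0.817 CPM, was under the filter.

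At the fork, Pcna and Fen1 fell with lipid alone and the primase subunit Prim1 rose in both comparisons. Pcna was at 97.8, 115, 117 and 114 CPM in untreated replicates A to D and at 96.5, 118, 116 and 111 CPM in the itaconate replicates. Its levels were 78.2, 91.6, 103 and 93 CPM with lipid and 104, 104, 95.5 and 97.3 CPM with lipid + itaconate. Pcna (chr2:132249162-132253314, minus strand) was lower with lipid in all 4 letters, with overlapping ranges (log2 fold change -0.28 ± 0.06 SE, adjusted p = 0.0017), and gave -0.13 ± 0.06 log2, adjusted p = 0.10 with lipid added to itaconate. Its reads were shared out by the counting in 15 of 16 libraries, and processed copies of Pcna exist in the annotation. Fen1 was at 21.7, 23.1, 26.4 and 23.1 CPM in untreated replicates A to D and at 21.6, 26.8, 26.1 and 21.7 CPM in the itaconate replicates. Its levels were 18.4, 19.4, 22.1 and 20.9 CPM with lipid and 23.2, 23.4, 24.3 and 22.5 CPM with lipid + itaconate. Fen1 (chr19:10199132-10204169, minus strand), the nuclease that trims Okazaki fragments, was lower with lipid in all 4 letters with overlapping ranges (log2 fold change -0.22 ± 0.07 SE, adjusted p = 0.012) and gave -0.04 ± 0.07 log2, adjusted p = 0.67 with lipid added to itaconate. Its call was lost without lipid replicate B (adjusted p = 0.05002) and without the replicate letter in the model (adjusted p = 0.05035), and it overlaps Tmem258 on the other strand. Prim1 was at 4.83, 5.54, 5.7 and 4.82 CPM in untreated replicates A to D and at 5.4, 5.73, 5.27 and 4.44 CPM in the itaconate replicates. Its levels were 7.56, 8.09, 6.12 and 7.29 CPM with lipid and 6.4, 7.16, 7.45 and 8.24 CPM with lipid + itaconate. Prim1 (chr10:128015168-128030037, plus strand), which makes the RNA primers, did not overlap between groups in either comparison (log2 fold change 0.48 ± 0.12 SE, adjusted p = 0.0038 with lipid alone, and 0.49 ± 0.12 log2, adjusted p = 0.0028 with lipid added to itaconate).

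Of the enzymes that supply nucleotides, Rrm1 rose and Tyms and Tk1 fell, each in 1 comparison. Rrm1 was at 21.4, 25.2, 23 and 24.4 CPM in untreated replicates A to D and at 19.1, 20.9, 22.9 and 23.5 CPM in the itaconate replicates. Its levels were 23.9, 23.7, 27 and 27.7 CPM with lipid and 26.2, 25.2, 30.9 and 28 CPM with lipid + itaconate. Rrm1 (chr7:102441695-102469771, plus strand), the large subunit of ribonucleotide reductase, was higher without overlap when lipid was added to itaconate (log2 fold change 0.35 ± 0.06 SE, adjusted p = 4.1e-04), and lipid alone gave 0.12 ± 0.07 log2, adjusted p = 0.14. Tyms was at 5.95, 5.89, 5.48 and 5.57 CPM in untreated replicates A to D and at 5.11, 6.1, 4.74 and 6.05 CPM in the itaconate replicates. Its levels were 4.83, 4.89, 3.89 and 4.59 CPM with lipid and 4.67, 3.89, 4.67 and 4.83 CPM with lipid + itaconate. Tyms (chr5:30058202-30073617, minus strand), thymidylate synthase, was lower with lipid without overlap (log2 fold change -0.33 ± 0.11 SE, adjusted p = 0.026), and lipid added to itaconate gave -0.28 ± 0.11 log2, adjusted p = 0.05249. Its call was lost without any 1 of untreated replicates A, B and C or lipid replicates C and D (adjusted p = 0.057 to 0.082) and with no filter on low genes (adjusted p = 0.068). Tk1 (thymidine kinase), at 1.43 CPM, fell when lipid was added to itaconate (log2 fold change -0.57 ± 0.21 SE, adjusted p = 0.037) and gave -0.52 ± 0.22 log2, adjusted p = 0.065 with lipid alone. That call was lost without any 1 of itaconate replicates A, C and D or lipid + itaconate replicates C and D (adjusted p = 0.057 to 0.14), without the replicate letter in the model (adjusted p = 0.11), with no filter on low genes (adjusted p = 0.056) and on the 8 libraries compared alone (adjusted p = 0.091), and Tk1 overlaps Afmid on the other strand. The small subunit Rrm2 passed in neither comparison, with 0.23 ± 0.14 and -0.14 ± 0.14 on the log2 scale. Lig1, Pola1, Pole, Uhrf1 and Chaf1a (a ligase, 2 polymerase subunits, a reader of newly copied DNA and a histone chaperone) did not pass by edgeR in either lipid comparison, with log2 fold changes between -0.57 and 0.26. Pole passed with lipid added to itaconate by DESeq2 (adjusted p = 0.045), with no filter on low genes (adjusted p = 0.013) and without any 1 of 3 libraries (untreated replicate B, itaconate replicate D and lipid + itaconate replicate D).

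In G1 and S entry, cyclin D3 fell and cyclin E1 rose with lipid. Ccnd3 was at 35.3, 35.3, 42.3 and 40.1 CPM in untreated replicates A to D and at 36.6, 36.2, 39.3 and 41.2 CPM in the itaconate replicates. Its levels were 27.9, 30.4, 32.1 and 31.9 CPM with lipid and 33, 32.9, 40.6 and 40.5 CPM with lipid + itaconate. Ccnd3 (chr17:47505051-47599691, plus strand), the cyclin of the set with the highest CPM, was lower in every lipid library than in every untreated library (log2 fold change -0.32 ± 0.05 SE, adjusted p = 6.9e-05), the smallest adjusted p of the set in any comparison. Per kb of exon the level of Ccne1 was higher, at 6.4 against 4.1 CPM per kb for Ccnd3. Lipid added to itaconate gave -0.06 ± 0.05 log2, adjusted p = 0.28. Ccnd3 overlaps Bysl on the other strand. Ccne1 was at 13.5, 15.4, 14.1 and 13.4 CPM in untreated replicates A to D and at 15.2, 18.6, 16.3 and 17.1 CPM in the itaconate replicates. Its levels were 14.7, 19.2, 17.2 and 18 CPM with lipid and 20.6, 22.8, 18.2 and 18.2 CPM with lipid + itaconate. Ccne1 (chr7:38097984-38107534, minus strand), the cyclin that drives entry into S phase, was higher with lipid in all 4 letters in both comparisons, with overlapping ranges (log2 fold change 0.30 ± 0.07 SE, adjusted p = 0.0044 alone, and 0.25 ± 0.07 log2, adjusted p = 0.011 with itaconate). The call with itaconate was lost without lipid + itaconate replicate A (adjusted p = 0.058) and without the replicate letter in the model (adjusted p = 0.05149).

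E2f1 was at 5.06, 5.96, 7.23 and 6.14 CPM in untreated replicates A to D and at 5, 7.5, 8.36 and 5.56 CPM in the itaconate replicates. Its levels were 5.93, 8.43, 7.58 and 7.8 CPM with lipid and 8.34, 8.17, 8.87 and 9.07 CPM with lipid + itaconate. E2f1 (chr2:154559407-154569892, minus strand), the transcription factor of the G1 to S step, was higher in all 4 letters in both comparisons, and passed when lipid was added to itaconate (log2 fold change 0.41 ± 0.12 SE, adjusted p = 0.0099) but not with lipid alone (0.29 ± 0.12 log2, adjusted p = 0.061). The call was lost without any 1 of itaconate replicate D or lipid + itaconate replicate A (adjusted p = 0.05060 to 0.05167) and without the replicate letter in the model (adjusted p = 0.062). Cyclin D1 gave 0.47 ± 0.25 log2, adjusted p = 0.14 with lipid alone and -0.28 ± 0.25 log2, adjusted p = 0.38 with lipid added to itaconate. Cyclin D2 (Ccnd2), at 1.05 CPM, gave 0.54 ± 0.23 log2, adjusted p = 0.066 and -0.19 ± 0.25 log2, adjusted p = 0.54, and cyclin E2 (Ccne2) gave -0.10 ± 0.17 log2, adjusted p = 0.65 and -0.36 ± 0.16 log2, adjusted p = 0.081. None of the 3 passed by edgeR in these comparisons. Ccne2 passed with lipid added to itaconate in 6 alternatives, among them DESeq2 (adjusted p = 0.04844), the 8 libraries compared alone (adjusted p = 0.045) and no filter on low genes (adjusted p = 0.0031). Ccnd2 passed with lipid alone without lipid replicate C (adjusted p = 0.045), and E2f1 passed with lipid alone in 4 alternatives, among them the 8 libraries compared alone (adjusted p = 0.044).

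In G2 and mitosis, Cdk1 rose with lipid from a low level and Ccnb2 fell. Cdk1 was at 1.78, 2.21, 2.26 and 1.96 CPM in untreated replicates A to D and at 1.52, 1.92, 1.69 and 2.08 CPM in the itaconate replicates. Its levels were 2.44, 2.22, 4.26 and 2.8 CPM with lipid and 2.93, 3.43, 3.52 and 3.22 CPM with lipid + itaconate. Cdk1 (chr10:69335146-69352938, minus strand), the kinase that starts mitosis, was higher in every lipid + itaconate library than in every itaconate library (log2 fold change 0.85 ± 0.17 SE, adjusted p = 8.3e-04) and higher in all 4 letters with lipid alone, where lipid replicate B overlapped the untreated range (log2 fold change 0.49 ± 0.17 SE, adjusted p = 0.027). The call with lipid alone was lost without any 1 of untreated replicates C and D or lipid replicate C (adjusted p = 0.077 to 0.16) and on the 8 libraries compared alone (adjusted p = 0.053). The counts behind Cdk1 ran from 38 to 105 in a library. Cyclin B2 (Ccnb2), the partner of Cdk1, fell without overlap when lipid was added to itaconate (log2 fold change -0.77 ± 0.24 SE, adjusted p = 0.016) and gave -0.26 ± 0.24 log2, adjusted p = 0.40 with lipid alone. That call was lost without any 1 of itaconate replicate D or lipid + itaconate replicates C and D (adjusted p = 0.066 to 0.070) and without the replicate letter in the model (adjusted p = 0.065). The Aurora kinase genes Aurka and Aurkb passed in neither comparison, with log2 fold changes of 0.18 ± 0.17 and 0.18 ± 0.26 with lipid alone and 0.27 ± 0.17 and 0.46 ± 0.24 with lipid added to itaconate.

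The 10 genes under the filter were Cdc6, Ccna2, Ccnb1, Mki67, Top2a, Bub1, Plk1, Cdc20, Birc5 and Foxm1, and they were fitted only in a model with no filter (25152 genes, of which 22.4% passed with lipid alone and 22.2% with lipid added to itaconate). Foxm1, a transcription factor of the G2 genes, was at 0.796, 0.667, 0.511 and 0.571 CPM in untreated cells and 0.122, 0.15, 0.243 and 0.203 CPM with lipid. It was at 0.471, 0.259, 0.377 and 0.346 CPM with itaconate and 0.0285, 0.193, 0.203 and 0 CPM with both. Foxm1 fell in both lipid comparisons without overlap (log2 fold change -1.79 ± 0.54 SE, adjusted p = 0.0057 alone, and -1.81 ± 0.60 log2, adjusted p = 0.014 with itaconate), from at most 19 counts in a library. Plk1, a mitotic kinase, was at 0.508, 0.37, 0.527 and 0.375 CPM with itaconate and 1.05, 0.77, 1.05 and 0.937 CPM with both. Plk1 rose without overlap when lipid was added to itaconate (log2 fold change 1.11 ± 0.36 SE, adjusted p = 0.011) and gave 0.66 ± 0.38 log2, adjusted p = 0.26 with lipid alone. The other 8 did not pass in either lipid comparison.

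In the p53 axis, Cdkn1a rose and Mdm2 fell with lipid, in 4 of 4 letters in both comparisons. Cdkn1a was at 264, 297, 310.2 and 308 CPM in untreated replicates A to D and at 249.9, 283, 264 and 271 CPM in the itaconate replicates. Its levels were 283, 326, 381 and 355 CPM with lipid and 305, 316, 318 and 310.2 CPM with lipid + itaconate. Cdkn1a (chr17:29090976-29100727, plus strand) overlapped between lipid and untreated (log2 fold change 0.19 ± 0.05 SE, adjusted p = 0.010) and did not overlap between lipid + itaconate and itaconate (log2 fold change 0.23 ± 0.05 SE, adjusted p = 0.0031). The call with lipid alone was lost without lipid replicate C (adjusted p = 0.053) and without the replicate letter in the model (adjusted p = 0.062). Mdm2 was at 232, 225, 217 and 219.7 CPM in untreated replicates A to D and at 248, 233, 234 and 226 CPM in the itaconate replicates. Its levels were 169.9, 180.2, 217 and 207 CPM with lipid and 199.9, 199.8, 189 and 197 CPM with lipid + itaconate. Mdm2 (chr10:117688875-117710758, minus strand) did not overlap in either comparison, though the gap between lipid and untreated was under 1 CPM (log2 fold change -0.21 ± 0.06 SE, adjusted p = 0.014 alone, and -0.26 ± 0.06 log2, adjusted p = 0.0038 with itaconate). Its call with lipid alone was lost without any 1 of untreated replicate A or lipid replicates A and B (adjusted p = 0.054 to 0.064). Cdkn1b was at 29.8, 31.5, 31.9 and 33.5 CPM in untreated replicates A to D and at 32.9, 32.7, 32.8 and 34.6 CPM in the itaconate replicates. Its levels were 31.1, 31.1, 36.2 and 33.1 CPM with lipid and 37.5, 41, 36.2 and 38.5 CPM with lipid + itaconate. Cdkn1b (chr6:134920401-134925513, plus strand), the gene of p27, rose without overlap when lipid was added to itaconate (log2 fold change 0.21 ± 0.05 SE, adjusted p = 0.0060), and lipid alone gave 0.05 ± 0.06 log2, adjusted p = 0.45. The p53 targets Cdkn1a and Mdm2 thus changed in opposite directions with lipid.

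**Figure D4:**
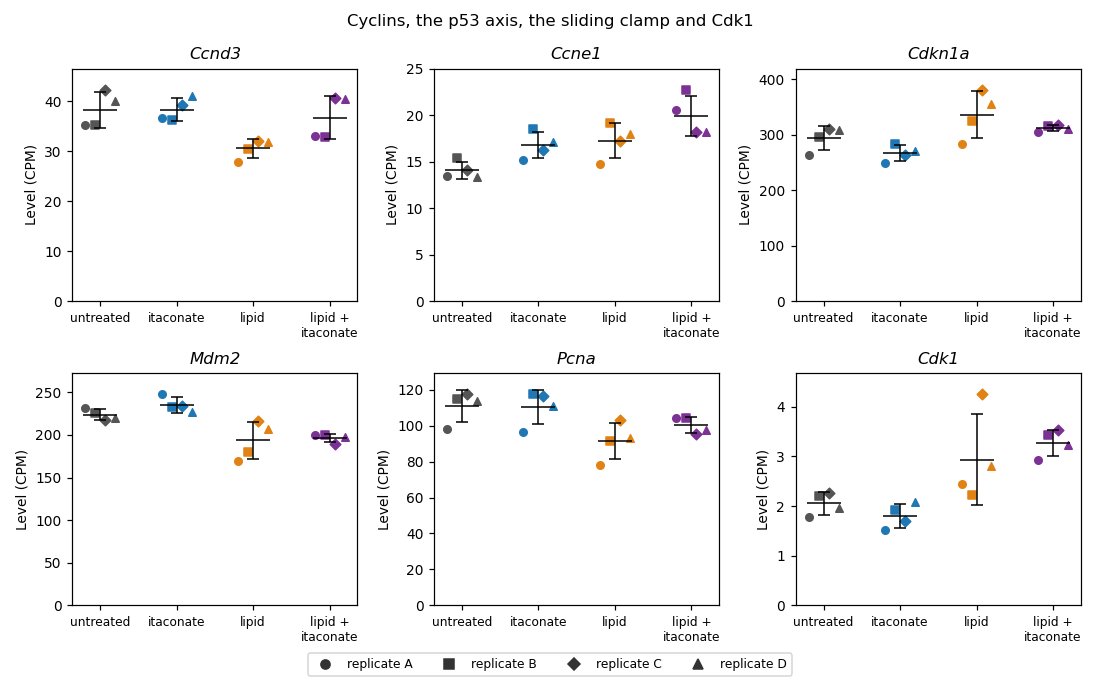
Level in CPM of Ccnd3, Ccne1, Cdkn1a, Mdm2, Pcna and Cdk1 in the 4 libraries of each group, with the mean and SD as bars and the replicate letter as the symbol; axes start at 0. Ccnd3 is lowest in the lipid group, at 27.9 to 32.1 CPM, and Mdm2 is lower in the lipid libraries than in the matching libraries without lipid.

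Itaconate moved few genes of the set. Against untreated cells, 1 of 35 passed, beside 4.91% of all genes (1.96% higher and 2.95% lower): Mcm4 fell in 4 of 4 letters (log2 fold change -0.22 ± 0.06 SE, adjusted p = 0.035). That call was lost without any 1 of untreated replicates A, B and C or itaconate replicates A, B, C and D (adjusted p = 0.074 to 0.13), without the replicate letter in the model (adjusted p = 0.24) and with no filter on low genes (adjusted p = 0.080). Unadjusted p-values were below 0.05 for 8 of the 35, and the share over all genes at that threshold was not taken. Mcm2, Mcm3 and Mcm5 were also lower in all 4 letters, with -0.23 ± 0.09 log2, adjusted p = 0.13, -0.20 ± 0.05 log2, adjusted p = 0.05110 and -0.33 ± 0.11 log2, adjusted p = 0.099, while Mcm6 and Mcm7 were higher in all 4 letters, with 0.17 ± 0.08 log2, adjusted p = 0.21 and 0.09 ± 0.05 log2, adjusted p = 0.33. Cyclin E1 gave 0.25 ± 0.07 log2, adjusted p = 0.063 and cyclin E2 0.42 ± 0.17 log2, adjusted p = 0.16, both higher in all 4 letters, and Cdkn1a gave -0.14 ± 0.05 log2, adjusted p = 0.15, lower in all 4. None of these passed by edgeR, while Mcm3 (adjusted p = 0.039) and Ccne1 (adjusted p = 0.045) passed by DESeq2. On the 8 untreated and itaconate libraries alone, 8 genes passed: Mcm6, Ccne1 and Ccne2 higher, and Mcm2, Mcm3, Mcm4, Mcm5 and Cdkn1a lower. The 4.91% of all genes is from the model of all libraries, and no such share was taken for this fit. Without the replicate letter in the model none passed. The count was 2 without lipid replicate A or D, and 3 without any 1 of lipid + itaconate replicates A, B and C.

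With lipid present throughout, itaconate gave 4 calls among the 35, all higher, beside 2.58% of all genes (1.32% higher and 1.26% lower). Ccnd3 rose without overlap (log2 fold change 0.26 ± 0.05 SE, adjusted p = 0.012), from a mean of 30.6 ± 1.96 CPM with lipid to 36.8 ± 4.4 CPM with both (SD, n = 4 each), beside 38.3 ± 3.54 CPM in untreated cells, and Cdkn1b rose without overlap (log2 fold change 0.22 ± 0.05 SE, adjusted p = 0.045). Mcm7 rose in 4 of 4 letters with overlapping ranges (log2 fold change 0.24 ± 0.05 SE, adjusted p = 0.027), as did Uhrf1 (log2 fold change 0.55 ± 0.13 SE, adjusted p = 0.043), at 4.83 CPM on average. The Ccnd3 call was lost without lipid replicate D (adjusted p = 0.054), without the replicate letter in the model (adjusted p = 0.30) and on the 8 libraries compared alone (adjusted p = 0.22). The Mcm7 call was lost without any 1 of lipid replicates A, B and D or lipid + itaconate replicates A and B (adjusted p = 0.062 to 0.11), without the replicate letter in the model (adjusted p = 0.32) and on the 8 libraries compared alone (adjusted p = 0.25). The Cdkn1b call was lost without any 1 of untreated replicates A, B, C and D, itaconate replicates A, B, C and D, lipid replicates A, B and D or lipid + itaconate replicates A, B and D (adjusted p = 0.057 to 0.14), without the replicate letter in the model (adjusted p = 0.21), with the filterByExpr filter (adjusted p = 0.05049) and on the 8 libraries compared alone (adjusted p = 0.32). The Uhrf1 call was lost without any 1 of untreated replicates A, B, C and D, itaconate replicates B and D, lipid replicates A, B, C and D or lipid + itaconate replicates A, B and D (adjusted p = 0.055 to 0.13), without the replicate letter in the model (adjusted p = 0.31) and on the 8 libraries compared alone (adjusted p = 0.22). Leaving out lipid + itaconate replicate C raised the count to 7, and leaving out lipid replicate D brought it to 0, as did the model without the replicate letter. The count was 1 without any 1 of lipid replicates A and B or lipid + itaconate replicates A and B, and 2 without any 1 of the untreated replicates, itaconate replicates B and D or lipid + itaconate replicate D. Ccnd2 had the largest fitted change of the 35 and went the other way, lower in 4 of 4 letters without overlap (-0.88 ± 0.24 log2, adjusted p = 0.059), at 1.75, 1.47, 1.09 and 1.62 CPM with lipid and 0.655, 0.616, 0.982 and 0.937 CPM with both. It passed with no filter on low genes (adjusted p = 0.04868) and without lipid + itaconate replicate C (adjusted p = 0.016). Mcm6 passed by DESeq2 (adjusted p = 0.041), with no filter and without the same library. Of the 35, 27 had a positive log2 fold change, beside 5832 of all 11675 genes tested. The median of the 35 was 0.12, beside 0.00 over all genes. All 10 licensing and helicase genes tested were among the 27. These genes were read in the same libraries, so their directions are not independent. The comparisons of itaconate with untreated cells and of lipid + itaconate with lipid share no library, and no gene passed in both.

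**Figure D5:**
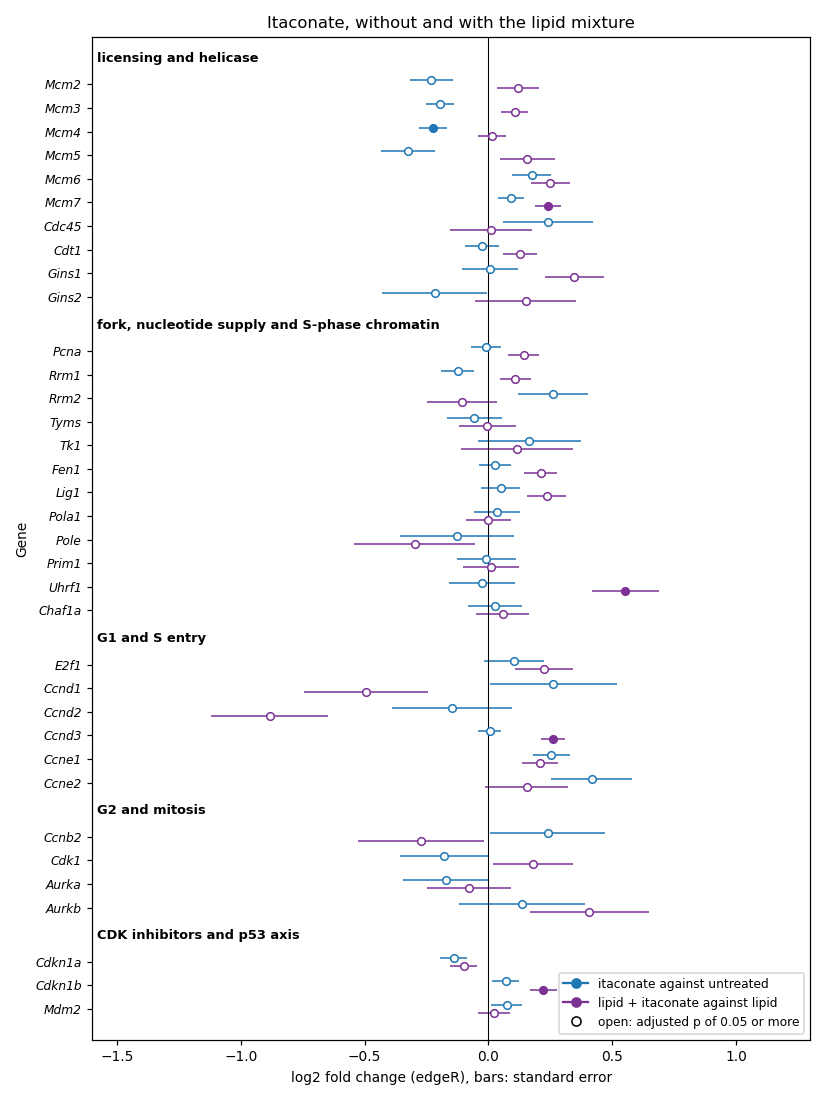
log2 fold change (edgeR) of the 35 tested genes with itaconate, against untreated cells and, with lipid present throughout, against lipid; bars are standard errors and filled points have an adjusted p below 0.05. Mcm4 is the 1 filled point against untreated cells, and Mcm7, Uhrf1, Ccnd3 and Cdkn1b are the 4 filled points against lipid.

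Whether itaconate changed the response to lipid was asked by the interaction term. No gene of the set passed (0 calls by edgeR, DESeq2 and limma-trend), beside 0.00857% of all genes. DESeq2 gave an adjusted p for only 17 of the 35, so its count does not cover the others. By edgeR 8 of the 35 had an unadjusted p below 0.05, with no share over all genes taken at that threshold. The largest differences among the ring were those of Mcm5 (0.48 ± 0.16 log2, adjusted p = 0.39) and Mcm2 (0.35 ± 0.12 log2, adjusted p = 0.43). Ccnd3 gave 0.26 ± 0.07 log2, adjusted p = 0.26. The calls that Mcm5, Pcna and Ccnd3 gave with lipid alone and not with itaconate, and those of Mcm2, Mcm3 and Rrm1 in the reverse order, were therefore not shown to differ between the comparisons.

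The wider pathway was read from 3 further lists, none of which holds any of the 45 genes. Of 44 tested genes of other replication proteins, 22 passed with lipid alone (15 higher and 7 lower), beside 47.5% of all genes called, and 25 with lipid added to itaconate (20 higher and 5 lower), beside 47.0%. Without the replicate letter the count with lipid alone was 14, with no share over all genes taken for that fit. The origin recognition subunits Orc3 and Orc5 rose in both, by 0.65 ± 0.06 and 0.53 ± 0.06 on the log2 scale with lipid alone and by 0.57 ± 0.06 and 0.53 ± 0.06 with lipid added to itaconate. Of 42 tested genes of other cell cycle proteins, 18 passed with lipid alone (7 higher) and 16 with lipid added to itaconate (9 higher), beside the same 47.5% and 47.0% of all genes. Without the replicate letter these counts were 11 and 9, again with no share over all genes taken. Rbl1 (p107, a relative of the retinoblastoma protein) rose in both (0.72 ± 0.09 log2, adjusted p = 8.4e-06, and 0.77 ± 0.09 log2, adjusted p = 5.8e-06), as did Ccnf (cyclin F), while the centrosome kinase gene Nek2 fell in both (-0.94 ± 0.14 log2, adjusted p = 5.5e-05, and -0.75 ± 0.13 log2, adjusted p = 2.6e-04).

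Of 24 tested p53 targets, 14 passed with lipid alone (6 higher and 8 lower) and 15 with lipid added to itaconate (7 higher and 8 lower), beside 47.5% and 47.0% of all genes. Bax (a promoter of apoptosis), Plk2 and Plk3 (polo-like kinases) fell in both comparisons, Bax with -0.49 ± 0.05 log2, adjusted p = 2.4e-06 and -0.49 ± 0.05 log2, adjusted p = 2.6e-06, Plk2 with -0.56 ± 0.06 log2, adjusted p = 1.9e-06 and -0.60 ± 0.06 log2, adjusted p = 1.3e-06, and Plk3 with -0.54 ± 0.07 log2, adjusted p = 1.5e-05 and -0.83 ± 0.07 log2, adjusted p = 3.4e-07. With itaconate alone, Plk3 rose (0.35 ± 0.07 log2, adjusted p = 0.0081), and Ccng1 (cyclin G1, -0.35 ± 0.07 log2, adjusted p = 0.0098) and Tnfrsf10b (a death receptor, -0.41 ± 0.09 log2, adjusted p = 0.014) fell, as did Pttg1 (securin, -0.37 ± 0.07 log2, adjusted p = 0.0081) and the polymerase subunit gene Pold4 (-0.31 ± 0.08 log2, adjusted p = 0.038). With lipid present, itaconate lowered Eda2r, a receptor gene of the same list (-0.37 ± 0.09 log2, adjusted p = 0.041), and raised Chaf1b and Atad2 of the other replication genes (0.46 ± 0.08 log2, adjusted p = 0.0071, and 0.24 ± 0.06 log2, adjusted p = 0.043). Without the replicate letter in the model, the itaconate calls of Plk3, Ccng1, Tnfrsf10b, Pttg1 and Pold4 (adjusted p = 0.083 to 0.48) and those of Eda2r, Chaf1b and Atad2 with lipid present (adjusted p = 0.24 to 0.52) were lost. For itaconate with lipid present, none of the 42 other cell cycle genes passed by edgeR or limma-trend and 3 passed by DESeq2. By edgeR 9 of 42 had an unadjusted p below 0.05, with no share over all genes taken at that threshold.

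Replicate letter also marked the set. Averaged over the 4 groups after removing each group mean, replicate A was the lowest letter for 24 of the 35 tested genes (68.6%), against 30.2% of all genes tested. The median deviation of the 35 genes was -0.10 on the log2 scale for A, 0.04 for B, 0.06 for C and 0.01 for D, and the corresponding medians over all genes were 0.00. Mcm6 shows it in 3 of 4 groups, where A is the lowest of the letters. The letter is a term of the model, so the fold changes above were taken within letters.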

How the data were processed

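Hepatocyte RNA was sequenced after mRNA capture with a stranded kit. Per the labels and the study's methods, reads were trimmed with cutadapt (1.18), mapped to mm10 with STAR (2.7.0f) and summed per gene by RSEM (1.3.1). The authors deposited estimated counts (expected counts), of which 5.41% are not whole because RSEM shares out reads that fit several genes. Whether RSEM was told the strand is not given in the sources used here, and 12 of the 45 genes overlap a gene on the other strand with a mean count of at least 10, so reads of such pairs may be mixed. All 55450 rows were matched to GENCODE release M21 for position and exon length. No column lacked a sample.

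Estimated counts were rounded, scaled by TMM and tested by edgeR (4.0.16) with the quasi-likelihood test on all 16 libraries, with treatment and replicate letter as terms and genes at a mean of at least 1 CPM (11675 genes). P-values were adjusted by Benjamini-Hochberg over all genes tested; SE is the log2 fold change divided by the root of the F statistic. CPM values are TMM-scaled. Libraries held 22346049 to 35512004 counts, and intervals of shares were not used. The letter was made a term because it is the only label that crosses the treatments. Libraries of 1 letter deviated together from their group means in each of 24 pairs (correlation over genes 0.144 to 0.469). Over 72 pairs of other letters the correlation ran from -0.436 to 0.178, with a median of -0.114. Removing each group mean pushes the correlations of other letters down, so that median is no independent contrast. The steps were tested on simulated data, in which a far smaller share of genes changed than was called with lipid here. The simulated fold changes were larger than most of those in the set. A letter effect was built in and only models with the letter were run, so the choice of that term was not tested. Alternatives were no replicate letter, RLE scaling, filterByExpr, no filter, the 8 libraries compared alone, DESeq2 (1.42.0), limma-trend (3.58.1), a prior count of 2 in place of 0.5 for low genes, and each library left out.

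Values per library are given for genes with an adjusted p below 0.05 in any comparison and a mean of at least 5 CPM, and always for Ccnd1, Cdkn1a, Mdm2, Pcna, Mki67, Top2a, Mcm6 and Cdk1; from each further list, the 3 genes with the smallest p in each lipid comparison are named, except 1 that is not reported here. Foxm1, Plk1, Tk1, Cdc45, Ccnb2 and Uhrf1 were added as the called genes below 5 CPM, and list genes called with itaconate after their values were seen. The genes and lists were chosen with earlier results of these data known.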

Additional observations from a re-analysis of the deposited data

Results flagged for a closer look

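Among the 92 groups of 4 libraries whose values were given or underlie the values given, 4 held a library far from the other 3 in its group (Dixon's test at the 95% level); chance alone gives about 1 in 20 groups. Mcm3 in lipid replicate A was at 43.3 CPM, below the 53.7 to 54.8 CPM of the other lipid libraries. Mcm6 in untreated replicate A was at 147 CPM, below the 181 to 186 CPM of the others. Cdkn1b in itaconate replicate D was at 34.6 CPM, above the 32.7 to 32.9 CPM of the others. Mki67 in untreated replicate D was at 0.250 CPM, above the 0.0351 to 0.0468 CPM of the others, a level near that of a few reads. No gene of the 45 passed the test of the interaction of lipid and itaconate.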

How the results depend on the processing

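Of the 33 calls of a gene in a comparison, 16 kept their direction and their side of the threshold under every alternative run, and none changed direction under any. Among results without a call, 25 pairs of a gene and a comparison passed in at least 1 alternative, 6 of them by DESeq2 and 0 by limma-trend. Without the replicate block 13 were lost; on the 8 libraries compared alone 8, with no filter 5, with filterByExpr 1 and by DESeq2 1 were lost, and none by RLE scaling or limma-trend. The counts with lipid alone stayed within 1.5 times of 12 in every setting, at 10 to 15 with 1 library left out. With lipid added to itaconate the count was 16, and 10 without the replicate block, and 13 to 17 with 1 library left out. For itaconate against untreated cells the count was 1, and 0 without the replicate block, 5 with no filter, 8 on the 8 libraries alone, 3 by DESeq2 and 0 to 3 with 1 library left out. For lipid + itaconate against lipid the count was 4, and 0 without the replicate block, 0 on the 8 libraries alone and 0 to 7 with 1 library left out. The cause of these shifts was not tested. Except for the lipid comparisons with no filter, no share over all genes was taken under these alternatives. The interaction count was 0 in every setting run. A prior count of 2 in place of 0.5 shrank the median log2 difference of the 22 genes under 5 CPM in each comparison. It went from -0.066 to -0.022 with lipid alone and from -0.103 to -0.040 with lipid added to itaconate. For itaconate it went from 0.018 to 0.0063 against untreated cells and from 0.042 to 0.021 with lipid present. Depth limits what can be said of the genes of G2 and mitosis, 9 of 13 of which averaged under 1 CPM.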
